A study of Mus musculus with 12 samples.

Results

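Rab GTPases are small membrane-bound switches, and each is known for a particular transport step between organelles. The genes described here are those whose symbol is Rab followed by a number and at most a letter and a digit, and no measured value entered that choice. They came to 49 of the 14177 genes in the table for the libraries labelled Cre- and 42 of the 9112 genes in the table for those labelled Cre+, and all 42 were also among the 49. The libraries come from cultured dorsal root ganglion (DRG) neurons of adult male mice (3 to 6 months in the sample labels) with both Rpl22 alleles of the RiboTag design, in which Cre recombinase switches a ribosomal protein to an HA-tagged form. The genotypes were Rpl22HA/HA Runx3-Cre+, where the driver is the Runx3 gene of proprioceptive neurons, and Rpl22HA/HA without Cre, so both carried the unrecombined tag allele. For each library, neurons of 5 mice were pooled after purification on a Percoll cushion and 24 h in culture, and RNA was sequenced from the HA pull-down or from an input set aside as 10% of the lysate. Each of the 4 groups had 3 libraries. No source says that the libraries of a group came from separate culture days, so the p-values measure the spread between these libraries only.

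In the cell, a Rab protein bound to GTP sits on a membrane and recruits effectors, among them motors, tethers and vesicle-docking proteins. Exchange factors load it with GTP, GTPase-activating proteins return it to the GDP form, and a dissociation inhibitor then carries it off the membrane. Sensory neurons rely on this system in long axons: RAB3 and RAB27 proteins act in vesicle release, RAB5 and RAB7 in the uptake and retrograde transport of neurotrophin receptors, RAB4 and RAB11 in recycling, and RAB1, RAB2 and RAB6 in traffic through the Golgi.

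Membrane attachment depends on geranylgeranyl groups added to cysteines at the end of the protein, and the gene's own coding end shows where these lie. The last 24 coding bases of the genes that the results below turn on are printed first, 5′ to 3′ from the RNA-like strand of GRCm38 with GENCODE M21 gene models, without the stop codon and with cysteine codons in capitals.
Rab3c: ccaccacagcccaacTGTggcTGC
Rab3a: ccacctcatcaggatTGTgccTGC
Rab3d: ccacagccgagcagcTGCagcTGT
Rab37: cgctccagcTGCTGCtcctttgtg
Rab6b: gccagcgagggcggcTGCtccTGT
Rab1b: aagcctgctagcggtggcTGCTGC
Rab12: cccagaccacacgtccgaTGCTGT
The Rab3 genes and Rab6b share a cysteine codon, 1 other codon and a final cysteine codon, an arrangement found in 18 of the 49. Rab1b and Rab12 end in adjacent cysteine codons, as do 14 in all, and Rab37 belongs to 16 genes whose cysteine codon stands 4 codons from the stop. The remaining gene is Rab34. Each of the 49 had at least 1 cysteine codon (TGT or TGC, sense strand) among its last 4 codons, against 10.5% of 21482 protein-coding genes, and 75.5% had at least 2, against 1.35%. Coding lengths ran from 582 to 843 bases (median 645), whereas the 3′ untranslated regions ran from 128 to 8596 bases (median 2065).

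The Cre+ table lists only genes with at least 5 counts in each of its libraries, as the values show, and the lowest count of a Rab gene in it was 7 (Rab27a). Rab3b, Rab8a, Rab13, Rab29, Rab30, Rab32 and Rab34 appeared in the Cre- table only. Of these 7, Rab29 and Rab32, both linked to lysosomes and related organelles, were below the expression filter of a mean of 1 FPKM (0.987 and 0.965) and were not tested. Their counts were 2, 11 and 46 in the Cre- inputs and 6, 28 and 3 in the Cre- pull-downs for Rab29. For Rab32 they were 11, 6 and 24, and 12, 17 and 4. The other 5 were tested, from Rab34 with 7 to 64 counts per library and Rab13 with 22 to 64 to Rab3b with 45 to 272, Rab30 with 89 to 313 and Rab8a with 169 to 236. RefSeq lists 59 Rab genes for the mouse, and 10 of them were in neither table. They were Rab7b, Rab17, Rab19, Rab20, Rab25, Rab26, Rab38, Rab40b, Rab42 and Rab44. Of these, Rab25 and Rab17 are known from epithelia and Rab38 from pigment cells, while Rab26 is classed here with regulated secretion and synaptic vesicles.

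The libraries held 8886308 to 18633365 counts, and Rab genes took 0.979% to 1.12% of them in the inputs of the libraries labelled Cre- and 1.03% to 1.05% in those labelled Cre+. All 10 pan-neuronal markers were past the filter in both genotypes. The driver gene Runx3 had 4.28, 2.39 and 5.55 normalized CPM (counts scaled by TMM to a common library size) in the Cre+ inputs and 22.8, 2.07 and 11.1 in the Cre+ pull-downs (log2 fold change 1.55, FDR 0.309 in edgeR). It had at most 4.70 in the Cre- inputs and 20.8, 36.0 and 51.4 in the Cre- pull-downs (3.52, FDR 0.000236), so it was called in the genotype labelled as lacking Cre. The pull-downs of the genotypes overlapped, and the difference of -1.93 did not pass (SE 0.996, FDR 0.302). Of the 8 proprioceptor markers, 7 of 8 tested were enriched in the Cre- pull-down and 1 of 6 tested in the Cre+ pull-down. The column names of the Cre+ table also resemble the titles of the Cre- pull-down samples, since both hold Cre, PD and a number. On the other side, the sample descriptions of each genotype name the table that is used for it here. The marker values and these names do not settle whether tables or labels were exchanged, so the genotypes are named by their labels throughout. A pull-down holds RNA of tagged ribosomes and RNA carried along, and in bulk RNA a change in which cells contribute cannot be told apart from a change in RNA per cell. The summed level of 10 Schwann cell and satellite glia markers was 3292 to 4666 normalized CPM in the Cre- inputs and 1656 to 2043 in the Cre- pull-downs. With 8 of these markers listed, it was 2922 to 4024 in the Cre+ inputs and 1871 to 2733 in the Cre+ pull-downs. Pmp22 was the highest gene of the list in every input (2399.7 to 3848 in Cre-), and the list did not move as one: in Cre-, 3 of its 10 tested genes were called depleted, while S100b was higher in every pull-down (log2 fold change 0.69, FDR 0.0114 in edgeR, under 2-fold). In Cre- the sum of the 10 pan-neuronal markers was 24112 to 29069 in the inputs and 48993 to 56482 in the pull-downs, with Nefm, Nefh and Snap25 called enriched. This list did not move as one either: 4 of the 10 had negative values. Among these, Rbfox3 was lower in every pull-down (log2 fold change -0.76, FDR 0.0045 in edgeR, under 2-fold). The sum of 13 markers of other sensory neurons in Cre- was 3483 to 3802 in the inputs and 1698 to 2555 in the pull-downs, with 5 called depleted. In Cre+ these sums overlapped between inputs and pull-downs, and no marker of either list was called enriched. Of the pan-neuronal list, Tubb3 (-1.19, FDR 0.0448 in edgeR) and Uchl1 (-1.85, FDR 0.0342) were called depleted in Cre+. Of the other sensory neuron list, Calca was (-1.84, FDR 0.0549). The part of these lists in the results below was not tested.

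A few genes carried most of the Rab RNA in the inputs, which also held RNA of glial markers. Levels between genes were compared as TMM-normalized CPM per kb of exon, over the union of a gene's exons. This union can be longer than 1 transcript, as for Rab36 (6179 against 3291 bases), and ranks depend on the length used. The most abundant was Rab6b, a Golgi Rab known from brain, at 595 ± 36.9 in the Cre- inputs and 530.2 ± 51.4 in the Cre+ inputs (SD, n = 3). This was 23.9% and 22.8% of the summed Rab level. Behind it came Rab7, the late endosome Rab, at 369 ± 54.0 in the Cre- inputs and 326 ± 57.1 in the Cre+ inputs. Rab6a, its ubiquitous Golgi paralog, had 298 ± 22.9 and 288 ± 15.9, Rab2a, which acts between ER and Golgi, 275 ± 53.5 and 244 ± 65.4, and Rab1, the ER to Golgi Rab also called Rab1a, 124 ± 2.83 and 118 ± 19.1. These 5 genes made up 66.8% of the Rab level in the Cre- inputs and 64.8% in the Cre+ inputs. Among neighbours in that order, Rab6b lay above Rab7 without overlap in both sets of inputs, and Rab2a lay above Rab1. Rab6a and Rab2a overlapped in both, and Rab7 and Rab6a overlapped in the Cre+ inputs only. Exons of Rab6a share 19.0% of their bases with other genes, so part of its count may belong to a neighbour. At the low end, Rab36 had 0.623 ± 0.313 per kb in the Cre- inputs and 0.960 ± 0.418 in the Cre+ inputs.

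**Figure D1:**
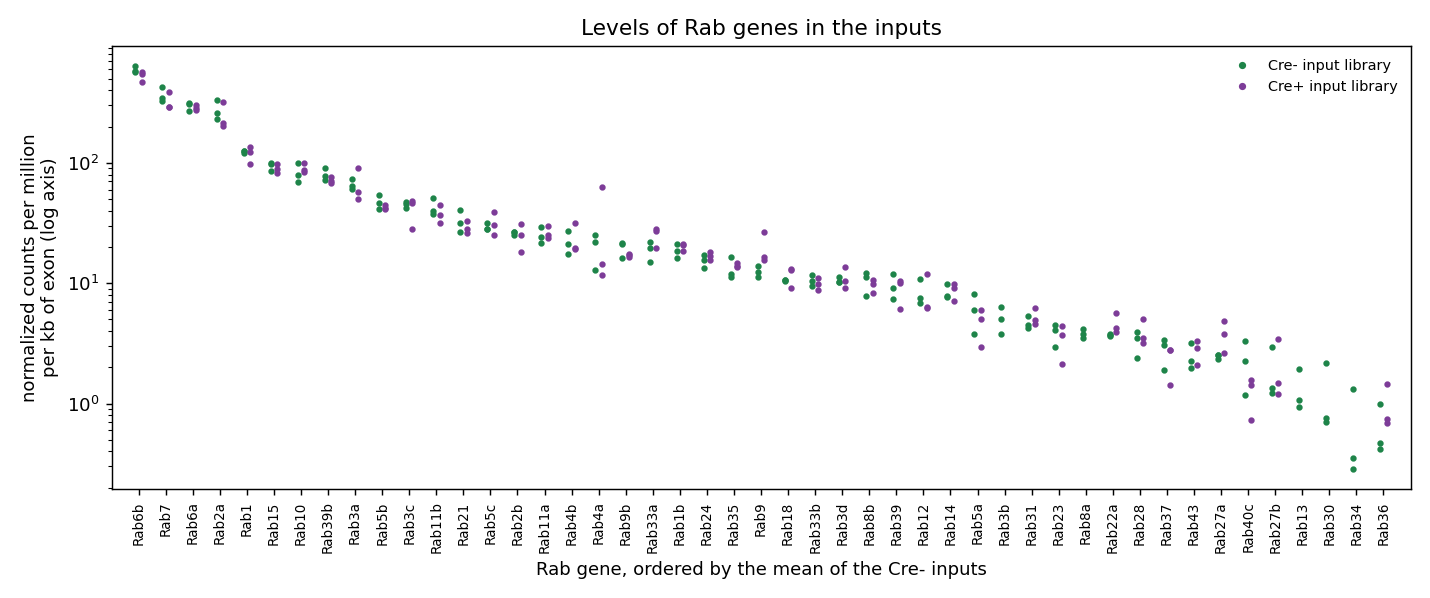
Normalized CPM per kb of exon (log axis) of each tested Rab gene in the 3 Cre- input libraries (green) and the 3 Cre+ input libraries (purple), 1 point per library. Levels fall from Rab6b, at 595 on average in the Cre- inputs, to Rab36 at 0.623, and genes without purple points were not listed for Cre+.

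The comparison the design makes is pull-down against input in each genotype, which asks which transcripts were over- or under-represented in the RNA that came down with the HA antibody. By label, the Cre- cultures lack the recombinase that switches on the tag, so their pull-down is the control for RNA that comes down without tagged ribosomes, and a call there is, by label, no measure of ribosome association. Most Rab genes moved by less than 2-fold: 35 of 42 in the libraries labelled Cre+ and 44 of 47 in those labelled Cre-, which is 83.3% and 93.6%, beside 64.8% and 83.0% of all genes tested. A gene was called at an adjusted p (FDR) below 0.1 in edgeR's quasi-likelihood test and a change of at least 2-fold. In Cre-, Rab3c was enriched and Rab12 depleted, so 1 of 47 in each direction (2.13%), beside 6.01% of all 11526 genes tested that were called higher and 5.83% called lower. In Cre+, no Rab gene was called enriched and Rab1b was depleted, 1 of 42 (2.38%), beside 4.72% and 2.19% of 8947 genes. For the count of 0 in Cre+, edgeR gave 3 Rab genes above the input at an unadjusted p under 0.05 (Rab3c, Rab6b and Rab37) and 2 below, together 11.9% beside 23.6% of all genes. DESeq2 called Rab3c and Rab37 enriched, where it called 12.3% of all genes, and edgeR's exact test called Rab37, where it called 8.87%.

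The medians of the family lay slightly below zero, on the log2 fold change scale, at -0.07 in Cre- (all genes -0.04) and -0.20 in Cre+ (all genes 0.08). In Cre+, 15 Rab genes had positive and 27 negative values (35.7% positive, beside 53.0% of all genes). In Cre- the split was 21 and 26 (44.7%, beside 47.5%). With scaling by library size alone, 7 of 42 and 10 of 47 were positive, at medians of -0.62 and -0.31, where the medians of all genes were -0.36 and -0.27. Every pull-down library lay above every input library for 5 of 47 genes in Cre- (10.6%, beside 18.2% of all genes), and below for 13 (27.7%, beside 18.6%). In Cre+ it lay above for 2 of 42 (4.76%, beside 15.5%) and below for 8 (19.0%, beside 17.9%). Without a fold limit, 3 Rab genes were higher and 8 lower in Cre- at FDR below 0.1, together 23.4% beside 24.2% of all genes (13.0% higher and 11.1% lower). Across the 42 genes tested in both genotypes the log2 fold changes had a Pearson r of 0.13 and a Spearman rho of 0.10, given as a description. Over all 8830 genes tested in both these were 0.33 and 0.32, and the libraries of a genotype are shared by all its points. Of the 42, 9 were positive in both, 18 negative in both and 15 of opposite sign, so 64.3% had the same sign. Over all 8830 genes the counts were 2814, 2668 and 3348, with 62.1% of the same sign.

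**Figure D2:**
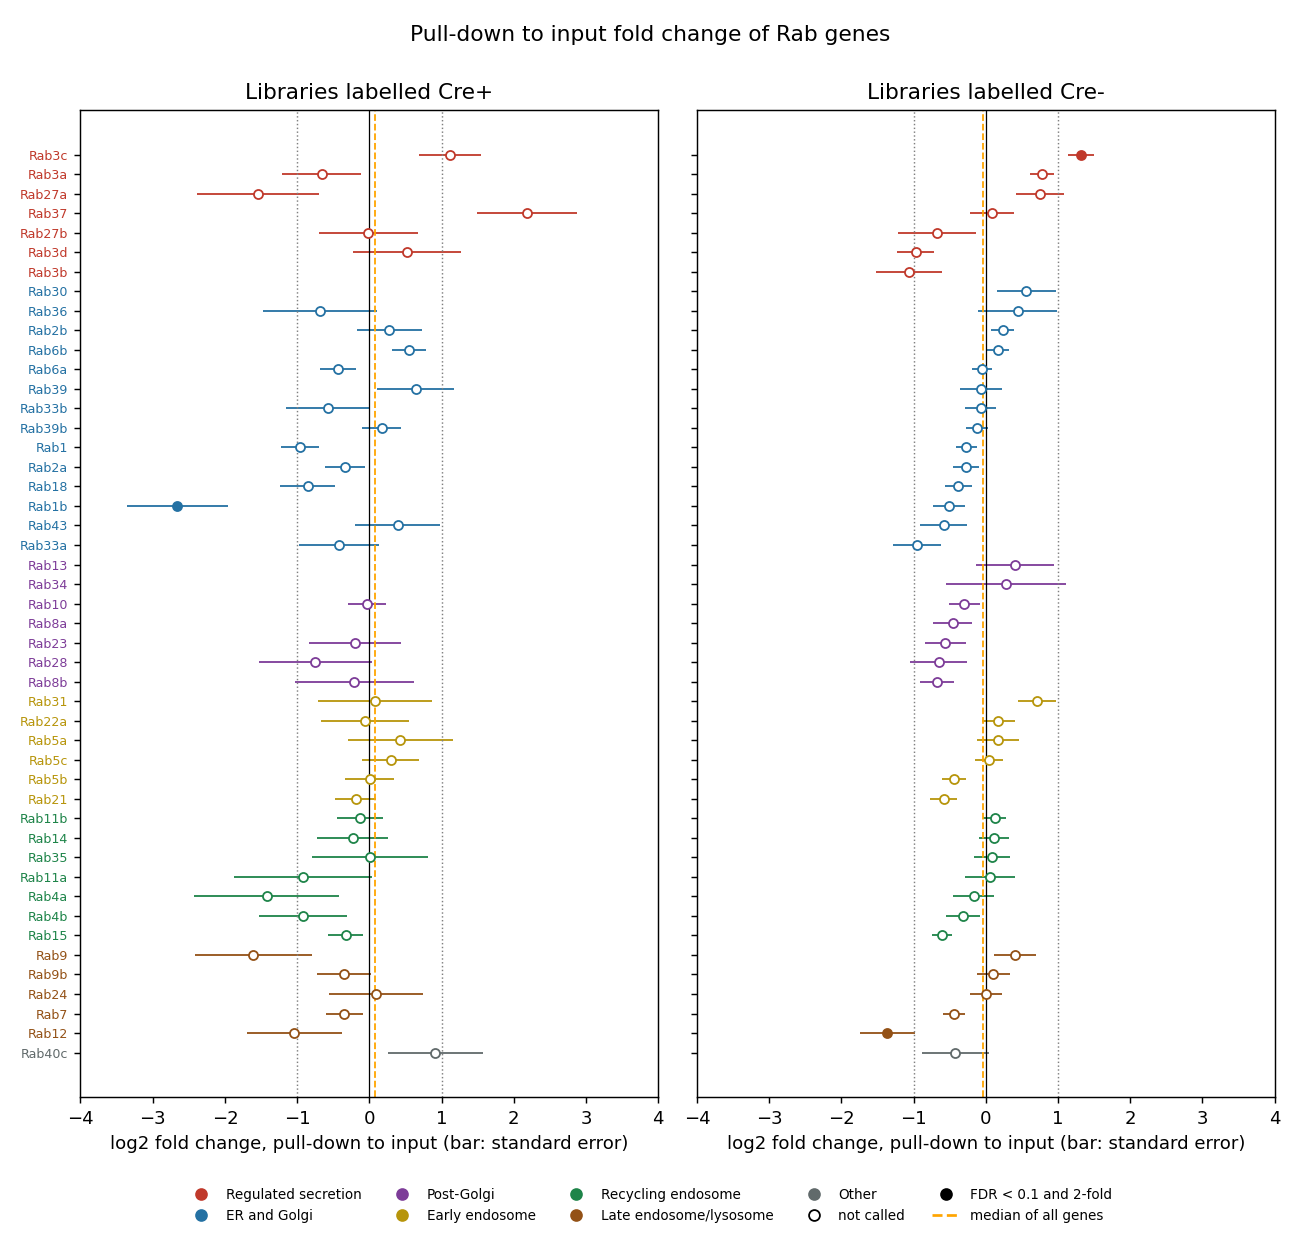
Log2 fold change from input to pull-down of each tested Rab gene, in the libraries labelled Cre+ (left) and Cre- (right), with 1 standard error as a bar and colours for role classes. Filled points passed FDR below 0.1 and 2-fold (Rab1b on the left, Rab3c and Rab12 on the right), dotted lines mark 2-fold and the dashed line is the median of all genes tested.

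The class of regulated secretion and synaptic vesicles held the enriched gene. Rab3c codes for a RAB3 GTPase of synaptic vesicles and lies on chr13:110054187-110280996 (GRCm38, minus strand). In the libraries labelled Cre-, it had 547, 572 and 512 normalized CPM in the inputs and 1004, 1512 and 1558 in the pull-downs. All 3 pull-downs lay above all 3 inputs. The change was 2.50-fold, a log2 fold change of 1.32 (SE 0.176, FDR 0.000393 in edgeR). In the libraries labelled Cre+, the inputs had 337, 581 and 557 and the pull-downs 428, 1332 and 1439. The groups overlapped there, because pull-down library 1 fell among the inputs, and the log2 fold change of 1.12 (SE 0.433) had an FDR of 0.163. Without that library it was 1.53 and passed, at an FDR of 0.0187. The difference between genotypes was -0.16 on the log2 scale (SE 0.509, FDR 0.888 in the edgeR interaction test).

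The other RAB3 genes went in both directions in the libraries labelled Cre-. Rab3a, the main RAB3 gene of synaptic vesicles in brain, had 163, 142 and 134 in the Cre- inputs and 215, 267 and 269.6 in the Cre- pull-downs. It passed the FDR (0.00684) with groups that did not overlap, at 1.71-fold and thus under the 2-fold limit. In the Cre+ libraries its inputs had 202, 127 and 111 and its pull-downs 26.8, 113 and 139, a log2 fold change of -0.66 (SE 0.548, FDR 0.487). The difference between genotypes of -1.39 (SE 0.617) missed the threshold at an FDR of 0.234. Rab3d, a RAB3 gene known from exocrine granules, had 47.2, 42.6 and 42.8 in the Cre- inputs and 30.5, 20.3 and 16.8 in the Cre- pull-downs, and so lay below the inputs in each. Its log2 fold change was -0.97 (SE 0.259, FDR 0.0230), just short of 2-fold. In Cre+ the pull-downs of Rab3d were spread from 13.7 to 151 around inputs of 38.0 to 56.9. Rab3b had 13.3, 22.5 and 17.9 in the Cre- inputs and 7.76, 14.6 and 3.35 in the pull-downs, where the groups overlapped (log2 fold change -1.06, SE 0.458, FDR 0.137). Of the RAB3 genes the class thus held in Cre- 1 called higher, 1 higher and 1 lower at FDR below 0.1 under 2-fold, and 1 that did not pass. Of all 11526 genes, 24.2% passed the FDR at any fold, and 6.01% were called higher and 5.83% lower. With the replicate numbers as a block, Rab3b and Rab3d were called depleted too (6.87% of all genes lower). These numbers were not shown to pair the libraries.

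Rab37, which codes for a secretory granule GTPase, showed the highest Rab fold change in the libraries labelled Cre+. Its Cre+ inputs had 14.8, 7.55 and 14.7 normalized CPM and its pull-downs 42.6, 20.1 and 106. All 3 pull-downs lay above the inputs but were widely spread, and the log2 fold change of 2.19 (SE 0.693) had an FDR of 0.110 in edgeR. In Cre- the inputs had 16.5, 18.1 and 10.1 and the pull-downs 15.5, 16.8 and 15.2, with overlapping groups and a log2 fold change of 0.09 (SE 0.305, FDR 0.870). The difference between genotypes was 2.13 (SE 0.765, FDR 0.161). The call of Rab37 in Cre+ changed with the method. It passed in DESeq2 (FDR 0.00921), in the exact test (0.0440) and without Cre+ pull-down library 1 (0.0595) or 2 (0.0823). The fit of all 12 libraries called it too. Without pull-down library 3, its highest, its log2 fold change was 1.36 (FDR 0.199). Of all genes, 14.0% were called enriched with all 12 libraries, and 8.98%, 7.31% and 3.58% without pull-down library 1, 2 or 3.

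Rab27a, a docking factor for secretory vesicles and melanosomes, had 9.80, 9.91 and 9.02 in the Cre- inputs and 17.2, 10.1 and 20.99 in the Cre- pull-downs. Its Cre+ inputs had 18.9, 10.3 and 14.6 and its Cre+ pull-downs 0.777, 6.83 and 7.39. The groups did not overlap in either genotype, higher in Cre- and lower in Cre+, and neither change passed (FDR 0.152 and 0.298 in edgeR), nor did the difference of -2.25 (SE 0.916, FDR 0.204). Rab27b, its paralog, had a log2 fold change of -0.67 in Cre- (SE 0.539, FDR 0.438) and -0.02 in Cre+.

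**Figure D3:**
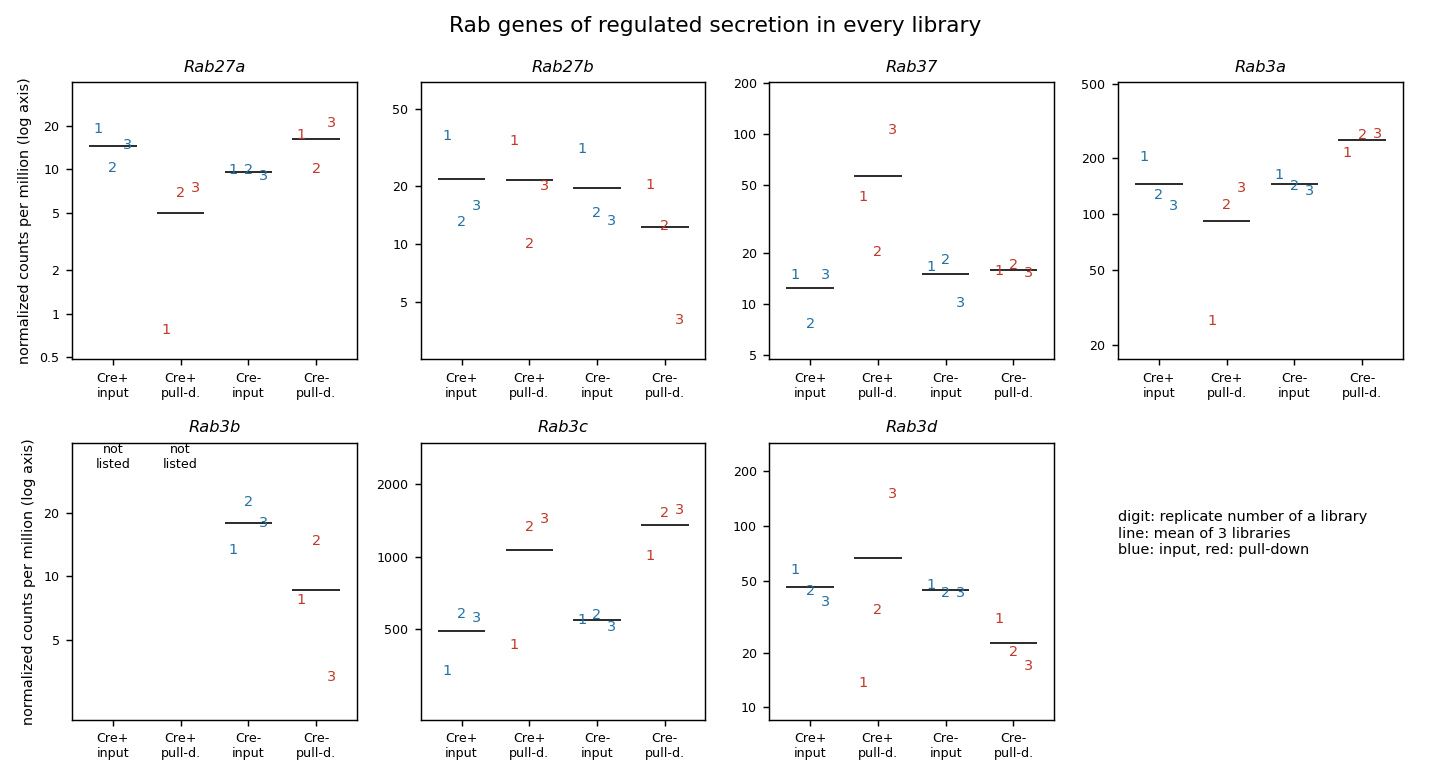
Normalized CPM (log axis) of the 7 Rab genes of regulated secretion in every library, with digits for the library numbers, blue for inputs, red for pull-downs and a line for the mean of 3. The 3 Cre- pull-downs of Rab3c (1004 to 1558) sit above all Cre- inputs, and Cre+ pull-down library 1 is the lowest Cre+ pull-down for Rab3a, Rab3c, Rab3d and Rab27a.

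Among Rab genes of the ER and Golgi, Rab1b was depleted in the libraries labelled Cre+. RAB1B acts with RAB1A in transport from the ER to the Golgi, and the gene lies on chr19:5099205-5107072 (GRCm38, minus strand). The Cre+ inputs had 47.4, 48.4 and 42.1 normalized CPM and the pull-downs 2.11, 11.1 and 8.66. All pull-downs lay far below the inputs, 6.31-fold lower in the fit, with a log2 fold change of -2.66 (SE 0.695, FDR 0.0775 in edgeR). In Cre- the inputs had 37.1, 48.2 and 42.1 and the pull-downs 31.1, 26.6 and 31.7. These did not overlap either, but the log2 fold change of -0.51 (SE 0.219) had an FDR of 0.131. The difference between genotypes was -2.10 (SE 0.672, FDR 0.120). The Cre+ call was lost without any single Cre+ input or without pull-down library 3, with FDR from 0.111 to 0.295, while the log2 fold change stayed between -2.77 and -2.62. Calls fell for all genes there: 0%, 0.168% and 0% were called lower without inputs 1, 2 and 3. Without pull-down library 3 it was 1.30%, beside 2.19% with every library.

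Rab1, its paralog, went the same way with a smaller change. The Cre+ inputs had 511, 369 and 465 and the Cre+ pull-downs 191, 233 and 267, without overlap, and the log2 fold change was -0.96 (SE 0.262, FDR 0.0855), under 2-fold. In Cre- the inputs had 478, 459 and 477 and the pull-downs 388, 351 and 433, again without overlap (log2 fold change -0.27, SE 0.143, FDR 0.220). Of the 13 ER and Golgi genes tested in Cre+, 8 had negative values and 5 positive, with a median of -0.42. Of the 14 in Cre-, 10 were negative, with a median of -0.10. The positive shares were 38.5% and 28.6%, beside 35.7% and 44.7% of all Rab genes tested. Over all genes tested 53.0% and 47.5% were positive, at medians of 0.08 and -0.04. Rab33a, a Golgi Rab also known from axonal vesicles, had the largest change of the class in Cre-, with 17.4, 22.9 and 25.3 in the inputs and 15.1, 7.05 and 11.8 in the pull-downs (log2 fold change -0.95, SE 0.330, FDR 0.0677). The most abundant Rab gene, Rab6b, had 2371, 2781 and 2849.6 in the Cre+ inputs and 2954, 3944 and 4806 in the Cre+ pull-downs. Here every pull-down was higher, and the log2 fold change of 0.55 (SE 0.238) had an FDR of 0.202. In Cre- the groups overlapped (0.17, SE 0.151, FDR 0.492). Rab6a had -0.43 in Cre+ and -0.05 in Cre-, and neither passed.

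Endosomal and lysosomal Rab genes gave a single call. Rab12, known from transport of the transferrin receptor to lysosomes and as a substrate of the kinase LRRK2, lies on chr17:66494512-66519729 (GRCm38, minus strand). Its Cre- inputs had 33.1, 22.7 and 20.7 normalized CPM and its Cre- pull-downs 16.0, 7.72 and 5.88. The groups did not overlap, and the change was 2.57-fold down, a log2 fold change of -1.36 (SE 0.382, FDR 0.0290 in edgeR). In Cre+ the inputs had 36.2, 19.3 and 19.0 and the pull-downs 6.88, 19.9 and 9.47, which overlapped, with a log2 fold change of -1.04 (SE 0.657, FDR 0.361). The difference of 0.37 between genotypes (SE 0.760) had an FDR of 0.822. The Cre- call was lost without Cre- input library 1 (FDR 0.112) or Cre- pull-down library 2 (0.120), where 4.55% and 4.75% of all genes were called lower.

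Rab9, a Rab of transport from late endosomes to the Golgi, had the largest change of its class in Cre+. Its Cre+ inputs had 46.4, 28.7 and 27.1 and its Cre+ pull-downs 24.3, 6.58 and 2.66, without overlap but with an FDR of 0.266 (log2 fold change -1.60, SE 0.815). It ranged from -2.84 to -1.13 with 1 library left out, and passed without Cre+ pull-down library 1 (FDR 0.0340) and in the fit of all 12 libraries (FDR 0.0831). In Cre- it had 21.7, 19.6 and 24.5 in the inputs and 40.6, 20.1 and 26.5 in the pull-downs (0.41, FDR 0.373). Rab7, the late endosome Rab, had 1123, 856 and 911 in the Cre- inputs and 734, 659 and 739 in the Cre- pull-downs. These did not overlap, and the log2 fold change of -0.44 (SE 0.149) passed the FDR at 0.0617 but not the 2-fold limit.

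In the early endosome class, 6 genes were tested in each genotype and none was called. Of all genes, 4.72% were called higher and 2.19% lower in Cre+, and 6.01% and 5.83% in Cre-. In Cre-, 3 of the 6 passed the FDR under 2-fold (50%, beside 24.2% of all genes at any fold), and none did in Cre+ (7.22%). Rab31, a RAB5 relative of endosomes and the trans-Golgi network, had the largest change in Cre-, with 17.1, 16.1 and 20.3 in the inputs and 23.7, 28.5 and 35.1 in the pull-downs. All pull-downs were higher, with a log2 fold change of 0.70 (SE 0.261, FDR 0.0854). Rab21 and Rab5b, both of early endosomes, went the other way in Cre-, with every pull-down below every input, at -0.58 (FDR 0.0498) and -0.44 (FDR 0.0919). Rab5a, the best studied early endosome Rab, had the largest change of the class in Cre+, at 0.43 (SE 0.732, FDR 0.759), with 15.5, 26.8 and 31.5 in the inputs and 7.11, 55.2 and 37.3 in the pull-downs. That value was -0.12 without Cre+ pull-down library 2 and 0.95 without library 1. Recycling endosome genes likewise gave no call among 7, and 1 of them passed the FDR in Cre- (14.3%, beside 24.2% of all genes). Rab15, a Rab of early and recycling endosomes known from neurons, was lower in Cre- in each pull-down, with 453, 394 and 459.7 in the inputs and 267, 286 and 305 in the pull-downs (log2 fold change -0.61, SE 0.145, FDR 0.0134). Rab4a, of the fast recycling route, had 111, 25.2 and 20.7 in the Cre+ inputs and 1.67, 37.4 and 19.3 in the Cre+ pull-downs. Both groups held a library far from the other two, so that the log2 fold change of -1.42 had an SE of 1.003 (FDR 0.412). With 1 library left out this value ranged from -2.29 to -0.24.

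Post-Golgi and ciliary Rab genes were not called in either genotype, with 4 tested in Cre+ and 7 in Cre-. In Cre-, 1 of the 7 passed the FDR (14.3%, beside 24.2% of all genes at any fold). Rab8b, of transport to the plasma membrane, had the largest change in Cre-, with 36.8, 57.7 and 53.1 in the inputs and 27.3, 30.4 and 35.1 in the pull-downs. The pull-downs lay below the inputs, and the log2 fold change of -0.67 (SE 0.236) passed the FDR at 0.0704 but not the 2-fold limit. Rab28, known from the primary cilium, had the largest change of the class in Cre+, at -0.75 (SE 0.780, FDR 0.586), with 14.5, 15.7 and 22.6 in the inputs and 2.11, 15.9 and 13.5 in the pull-downs. Rab40c, the only member outside these classes, codes for a Rab with a SOCS box. It had 2.27, 4.84 and 4.38 in the Cre+ inputs and 8.88, 8.90 and 3.93 in the Cre+ pull-downs, with overlap (log2 fold change 0.91, FDR 0.420). In Cre- it had 10.3, 7.02 and 3.64 in the inputs and 6.08, 5.08 and 4.39 in the pull-downs, with overlap (-0.42, SE 0.463, FDR 0.579).

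The Cre+ pull-down libraries differed widely in the Rab genes. The median SD of the log2 values over the 3 Cre+ pull-downs was 0.87 for the Rab genes (0.79 for all genes), against 0.23 in the Cre- pull-downs (0.32), 0.29 in the Cre+ inputs (0.32) and 0.22 in the Cre- inputs (0.27). Cre+ pull-down library 1 stood apart. Of the 4 endothelial markers, Pecam1 (255 normalized CPM against 20.2 and 17.8 in the other Cre+ pull-downs), Kdr (64.5 against 16.5 and 13.7) and Tek (46.1 against 2.19 and 11.4) were highest in it, and Cdh5 was not (61.1 against 59.9 and 69.6). Their sum ranged from 98.8 to 427 over the Cre+ pull-downs and from 47.8 to 83.2 over the Cre+ inputs. Both tested macrophage markers were also highest in it, Cd68 at 103 against 13.8 and 4.27 and Csf1r at 9.44 against 3.05 and 0.577. So were 2 of 8 tested glial markers, Sox10 (104 against 47.8 and 9.58) and S100b, and 2 of 4 fibroblast markers, Col1a1 and Col1a2. Of the 6 tested proprioceptor markers 5 were highest in it as well, Runx3, Ntrk3 (341 against 261 and 258), Etv1, Whrn and Esrrg. Of the markers of other sensory neurons, Tac1, Scn10a, Scn11a, Th and Gfra2 were highest in it, and of the pan-neuronal markers Nefh, Prph, Isl1 and Avil. The rest of these last lists were not. The part of these cell types in the Rab values was not tested. Rab genes took 0.548% of its counts, against 0.936% and 1.02% in the other Cre+ pull-downs. Relative to the mean input, its median log2 value over the Rab genes was -0.97, beside -0.17 and 0.02 in the other Cre+ pull-downs and -0.15, -0.12 and -0.05 in the Cre- pull-downs. The median of all genes in that library was -0.05. In it, 9 of 42 Rab genes lay at least 4-fold below both other Cre+ pull-downs, beside 6.93% of all genes, and in the other 11 libraries no Rab gene did so against its own group. The lowest relative value was that of Rab11a, the recycling endosome Rab, with 12 counts (1.33 normalized CPM) where the next Cre+ pull-down had 43.0. Rab35, of endocytic recycling and neurite growth, had 33 counts and Rab8b 31. The others were Rab4a, Rab27a, Rab28, Rab5a, Rab31 and Rab3a. Without this library the median Rab log2 fold change in Cre+ was -0.08 in place of -0.20, with 20 of 42 positive, and Rab37 and Rab3c were called enriched and Rab1b and Rab9 depleted (4.76% each way, beside 8.98% and 6.04% of all genes in that fit).

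**Figure D4:**
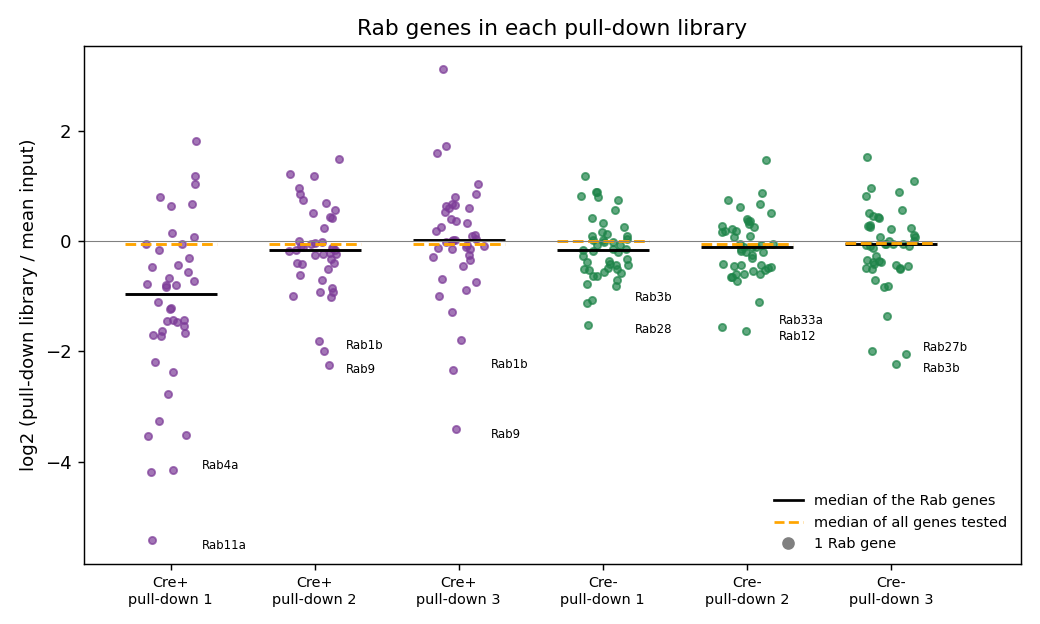
Log2 of each pull-down library over the mean input of its genotype for every tested Rab gene (points), with the median of the Rab genes (black line) and of all genes tested (dashed orange line). In Cre+ pull-down library 1 the Rab median is at -0.97 with Rab11a lowest, and the other 5 libraries have Rab medians between -0.17 and 0.02.

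The difference of both enrichments, tested as an interaction over all 12 libraries, gave no call among the 42 Rab genes, beside 2.33% of 8954 genes called higher in Cre+ and 2.03% lower. At an unadjusted p under 0.05 edgeR gave 6 Rab genes (14.3%, beside 19.5% of all genes), Rab37 higher in Cre+ and Rab1, Rab1b, Rab3a, Rab9 and Rab27a lower. DESeq2 called Rab37 (FDR 0.0509) and Rab1b (0.0214), beside 6.83% of all genes called higher and 4.78% lower. Without Cre+ pull-down library 1, edgeR called 2 higher (Rab37 and Rab3d) and 3 lower (Rab1b, Rab9 and Rab27a), in a fit that called 7.09% of all genes higher and 6.70% lower. It called Rab37 and Rab1b without Cre+ pull-down library 2 (beside 7.96% of all genes higher and 7.75% lower), and Rab1b without Cre+ pull-down library 3 (beside 5.05% lower). The median difference over the Rab genes was 0.03 (all genes 0.13), with 21 values on either side of zero.

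Genes for proteins that load, unload, carry or read Rab proteins were taken from a list of 130. Of these, 103 were tested in Cre+ with 8 called enriched and 1 depleted (7.77% and 0.971%), and 109 in Cre- with 9 and 0 (8.26%, with 4.72% and 6.01% of all genes called enriched and 2.19% and 5.83% depleted). At an unadjusted p under 0.05 edgeR gave 34 of the 109 in Cre-, 3 of them lower, beside 31.0% of all genes in either direction. The medians on the log2 fold change scale were 0.40 and 0.27. Among effectors, Myo5a, the actin motor myosin Va that carries vesicles bound by several Rab proteins, rose by 2.20 (SE 0.337, FDR 0.0260) in Cre+ and 1.40 (SE 0.169, FDR 0.000209) in Cre-. Dmxl2, which codes for rabconnectin 3, a synaptic vesicle protein, rose by 1.91 (FDR 0.0540) and 1.52 (FDR 7.41e-05). Lrrk2, the kinase that phosphorylates RAB12 and other Rab proteins, rose in Cre- (1.22, FDR 0.00218) and had 1.58 in Cre+ (FDR 0.111). Mical3 was called in Cre+ (1.68, FDR 0.0757).

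Chml, which codes for an escort protein that presents new Rab proteins for prenylation, was called enriched in both genotypes, at 1.87 in Cre+ (SE 0.377, FDR 0.0448) and 1.08 in Cre- (SE 0.289, FDR 0.0257). It was the single enriched gene of 8 tested for prenylation and membrane cycling. Of the exchange factors, Madd, which acts on RAB3 and RAB27, was called in Cre+ (1.5, FDR 0.0728) and had 0.73 in Cre- (FDR 0.0176, under 2-fold). Dennd5a rose in Cre+ (1.61, FDR 0.0855), and Dennd5b and Dennd4b in Cre- (1.19, FDR 0.00369, and 1.03, FDR 0.0621). Dennd4b had -1.01 in Cre+ (FDR 0.415, groups overlapping), and the difference did not pass (FDR 0.195). Rabgef1, the RAB5 exchange factor rabex 5, fell by 2.32 in Cre+ (SE 0.565, FDR 0.0664) and had 0.17 in Cre-, and the difference of -2.45 passed (SE 0.513, FDR 0.0362). Of the GTPase-activating genes, Usp6nl was called in Cre+ (1.65, FDR 0.0942) and Tbc1d4 in Cre- (1.31, FDR 0.0425). The difference also passed as lower in Cre+ for the effector genes Osbpl1a (-1.97, FDR 0.0716) and Rab11fip5 (-1.05, FDR 0.0689), so 3 of 102 (2.94%, beside 2.03% of all genes). None was called higher, beside 2.33% of all genes. At an unadjusted p under 0.05 edgeR gave 19 of the 102, 9 of them higher, beside 19.5% of all genes in either direction.

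**Figure D5:**
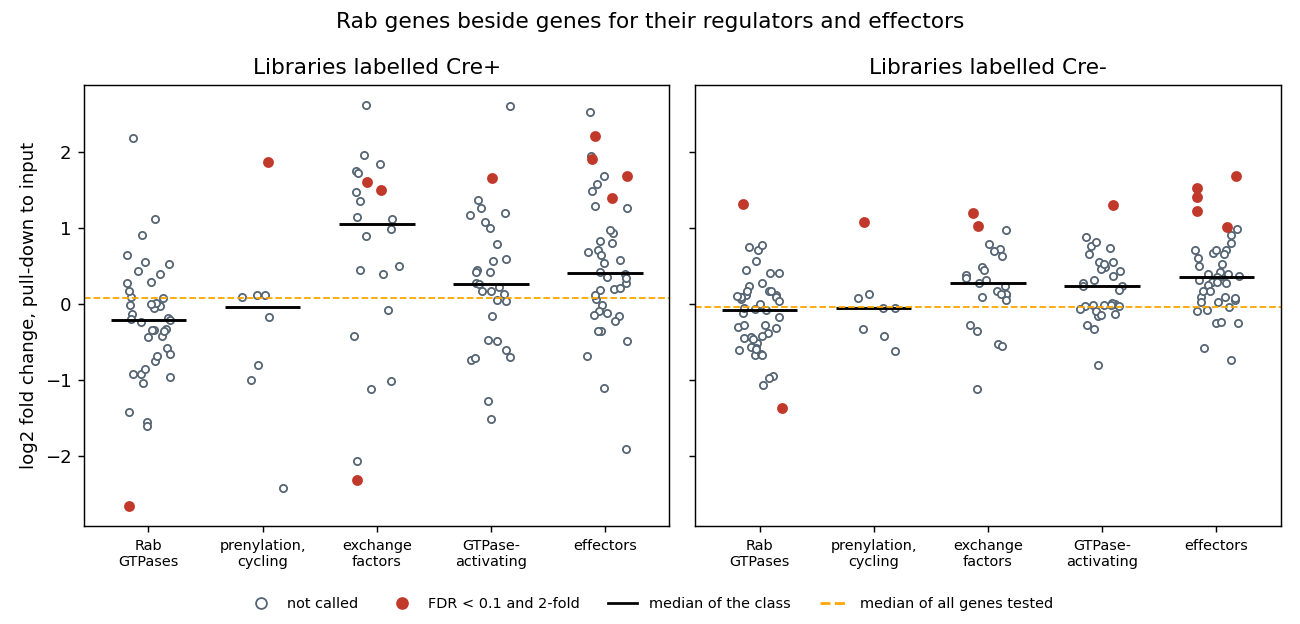
Log2 fold change from input to pull-down of the Rab genes and of 4 classes of genes that act on or with Rab proteins, in the libraries labelled Cre+ (left) and Cre- (right). Filled red points passed FDR below 0.1 and 2-fold, black lines are class medians and the dashed line the median of all genes tested, and the Rab median lies at -0.20 and -0.07.

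Transcript length was set beside these values because the enrichment of all genes moved with it. Spearman's rho between log2 fold change and transcript length was 0.53 over 8725 genes in Cre+ and 0.35 over 11111 in Cre-, and over the other genes of the pathway it was 0.51 (n = 103) and 0.38 (n = 109). Over the Rab genes it was 0.36 (n = 42) and -0.02 (n = 47). Rab transcripts had a median of 3120 bases in Cre+, beside 3453 over all genes tested and 4756 over the pathway genes. Their coding parts were far shorter (median 645 bases, against 1506 and 2445). Spearman's rho between log2 fold change and coding length over the Rab genes was 0.06 in Cre+ and -0.16 in Cre-. Over all genes tested it was 0.52 and 0.40. Rab3c had the longest transcript of the Rab genes tested in Cre+ (8444 bases) and Rab1b, at 1913, one of the shorter. Other members went against that order: Rab37, with the highest fold change, had 2210 bases, and Rab18 and Rab27b, with 6515 and 6891 bases, had log2 fold changes of -0.85 and -0.02. These correlations describe genes that share their libraries, and the part of length in the Rab values was not tested.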

How the data were processed

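RNA from HA pull-downs and inputs of cultured DRG neurons was sequenced in 12 libraries, grouped by the genotype and fraction in their labels. The Cre+ columns could be assigned only to their group, so their numbers merely tell libraries apart. The authors aligned reads to mm10 with STAR and counted unique read fragments per gene with HTSeq on refFlat, and the deposited counts are whole numbers, not normalized. The deposited FPKM is the authors' mean over the libraries of a table and served only as a filter (above 1). The authors' log2 fold changes, p-values and FDR, and 18 per-sample columns (normalized counts, ratios), were not used. CASAVA 1.8.2 is named in the submitters' processing notes.

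edgeR 4.0.16 in R 4.3.3 (TMM, glmQLFit with robust estimation, glmQLFTest) compared pull-down with input on the 6 libraries of a genotype, over all genes past the filter, with Benjamini-Hochberg adjustment. The difference was the interaction in a fit of all 12 libraries. The standard error is the log2 fold change divided by the square root of F. CPM values were computed with the TMM factors. Log2 values of single libraries took a pseudocount of 0.5, and levels per kb the exon union of GENCODE M21 (GRCm38). Rab1 was matched as Rab1a through RefSeq synonyms. No source says that the counting was strand-specific, and 7 Rab genes share over 10% of their exon bases with another gene (Rab24, Rab2b, Rab33b, Rab39b, Rab43, Rab4b and Rab6a). Alternatives were DESeq2 1.42.0, other filters, scalings and thresholds, the exact test, a joint fit, a replicate block in Cre- and each library left out. Named with values were the called Rab genes, the largest change of each role class in each genotype, and the most and least abundant. The remaining Rab genes given in every library were chosen after their values were seen. Members and lists were chosen with earlier results of these data known. Scripts were tested on simulated data. Reads carry no molecular identifiers and are not independent molecules.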

Additional observations from a re-analysis of the deposited data

How the results depend on the processing

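No Rab result changed direction past the threshold under any alternative, and Rab3c in Cre- stayed called in each one run (FDR up to 0.0664). In Cre+, where 0 Rab genes were enriched and 1 depleted, 0 were depleted at an FDR of 0.05 (0.291% of all genes) and 2, Rab1 and Rab1b, with upper-quartile scaling (2.97%) or without a fold limit (2.32%). Scaling by library size alone gave 3 depleted (7.81% of all genes), DESeq2 gave 2 enriched (12.3%), the exact test 1 (8.87%), and the fit of all 12 libraries 2 enriched (14.0%) and 2 depleted, Rab1b and Rab9 (10.6%). Leaving out 1 library gave 0 to 2 enriched (0.0447% to 8.98% of all genes), 0 to 2 depleted (0% to 6.04%) and a median of -0.41 to -0.08. In Cre-, no fold limit gave 3 enriched and 8 depleted (13.0% and 11.1% of all genes), DESeq2 gave 2 depleted (Rab12 and Rab3b, with 6.23% of all genes), library size alone 4 (10.7%), and the fit of all 12 libraries 0, with Rab12 at an FDR of 0.205. There the median of -0.07 was -0.13 with a filter of 10 counts in 3 libraries or with none, and -0.31 with library size alone. Leaving out 1 library gave 1 to 2 enriched (4.99% to 7.09% of all genes), 1 to 4 depleted (4.55% to 9.20%) and a median of -0.15 to -0.069. In the difference, DESeq2 called 1 higher (6.83% of all genes) and 1 lower (4.78%). Leaving out 1 library there gave 0 to 2 higher (0.145% to 7.96% of all genes) and 0 to 3 lower (0.335% to 7.75%). The median was then -0.25 to 0.24. The cause of these changes was not tested. Library size alone moved the median of all genes from 0.08 to -0.36 in Cre+ and from -0.04 to -0.27 in Cre-, so Rab medians are best read beside it. Where a fit left 2 libraries in a group, their spread was pooled with that of the other group.

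The replicate numbers of the Cre- libraries were not shown to pair pull-downs with inputs: deviations of same-numbered libraries correlated at 0.07, 0.03 and 0.13, although each library correlated best with its own number. A replicate block in Cre- called 1 enriched and 3 depleted Rab genes (Rab12, Rab3b and Rab3d), beside 6.11% and 6.87% of all genes. With that block the difference gave 0 in either direction, beside 0.212% of all genes higher and 0.447% lower. No paired fit was made in Cre+, because the numbers in its column names could not be tied to the replicate numbers of single samples.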
